A study of Homo sapiens with 8 samples.

Results

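The core circadian clock genes described here are the activators CLOCK, BMAL1 and NPAS2 and the repressors PER1, PER2, PER3, CRY1 and CRY2, 8 of the 18852 genes that the probes of the array name. They were selected by gene symbol, with BMAL1 also known as ARNTL, and 13 of the 48797 probes carry one of these names. The group was proposed with the differences between saline and CpG-ODN arrays of these same data in view. Those differences are therefore given as a description of the members. No p-value is given for a member, and where members past the threshold of the fit over all probes are counted, the count is descriptive too.

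The cells were IGROV-1, an established line from a human ovarian carcinoma, passaged as ascites in the peritoneum of mice. Once ascites had formed, on day 10 to 11 after the cells were injected, mice received saline or CpG-ODN intraperitoneally, the latter at 20 µg per mouse. The agent was the phosphorothioate oligonucleotide ODN1826, a short synthetic DNA with unmethylated CpG motifs that is a ligand of the innate immune receptor TLR9. The labels give a course of 3 consecutive days and one of 1 dose, do not say which array had which, and give 4 mice per group, with no strain, sex or age. Tumour cells attached to the peritoneal wall were taken 24 hours after the last dose, and 4 saline and 4 CpG-ODN samples were each read on 1 array. The labels do not state the hour of the day at which cells were taken, nor whether each array holds the RNA of 1 mouse, and the spread given is that between these arrays, which may in part be technical.

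In the mammalian clock, CLOCK or its relative NPAS2 pairs with BMAL1, and the pair binds E-box sequences to switch on the PER and CRY genes. PER and CRY proteins then accumulate, enter the nucleus and inhibit the pair that made them, which closes a feedback loop with a daily period. Side loops run through REV-ERB and ROR nuclear receptors and through D-box binding factors. The loop runs in most cell types, epithelial and tumour cells included, and it times the expression of many metabolic and cell cycle genes.

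Stretches with a match to the E-box or a variant of it are shown here for PER2, CRY1 and CRY2, which stood higher with CpG-ODN. Such a stretch is also shown for PER1, which was at the edge of detection and not in the fit. The motifs searched on both strands of the 250 bases before each annotated start were the E-box CACGTG and its variant CACGTT, the E′-box, in promoters from RefSeq on GRCh38.p14. All 8 genes were in that table, with 12 starts, and 5 of the 12 starts held a match, against 10.6% of 35116 promoters of the same length. PER1 had an E-box 173 bases before its start. The E′-box lay 197 bases before the start of PER2 and 89 before that of CRY1, and CRY2 held it at 1 of 2 starts, 188 bases before it. CLOCK also held an E′-box at 1 of 2 starts, 187 bases before it, and no start of PER3, BMAL1 or NPAS2 held either form in this window. Capitals mark the E-box or E′-box, read as AACGTG where it lies on the other strand. The windows are chr17:8152405-8152654 (minus strand) for PER1, chr2:238288790-238288819 (minus) for PER2, chr12:107093550-107093799 (minus) for CRY1 and chr11:45847275-45847304 (plus) for CRY2. For PER2 and CRY2, whose starts lie inside the annotated span of the gene, 30 bases are shown.
PER1: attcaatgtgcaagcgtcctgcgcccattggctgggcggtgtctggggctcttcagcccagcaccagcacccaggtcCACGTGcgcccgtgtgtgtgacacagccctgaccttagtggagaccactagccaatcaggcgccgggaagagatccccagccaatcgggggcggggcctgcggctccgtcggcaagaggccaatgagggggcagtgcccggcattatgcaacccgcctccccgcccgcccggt
PER2: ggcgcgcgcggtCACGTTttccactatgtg
CRY1: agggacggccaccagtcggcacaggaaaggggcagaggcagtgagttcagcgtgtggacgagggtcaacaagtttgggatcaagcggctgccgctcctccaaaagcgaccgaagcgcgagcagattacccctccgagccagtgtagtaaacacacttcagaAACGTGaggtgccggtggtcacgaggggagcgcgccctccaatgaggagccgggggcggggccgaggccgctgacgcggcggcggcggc
CRY2: acacatggtaggAACGTGagggggcgggcc

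A D-box, TTATGTAA or TTATGCAA, stood 30 bases before the start of PER1 and 177 before 1 of 2 starts of PER3, and 1.61% of all promoters held one. The core of the element read by REV-ERB and ROR, AGGTCA, stood 144 bases before the start of PER1 and 62 and 64 bases before the 2 starts of CRY2, with a match in 12.1% of all promoters. No member start held the cyclic AMP response element TGACGTCA, which 1.65% of promoters held. A match describes the letters of a window and says nothing of binding or of the differences between the groups.

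Signals are log2 values after background correction and quantile normalization, and a probe counts as above background on an array where its deposited detection p-value is under 0.05. Arrays had a mean raw signal of 876 to 1079 (saline) or 806 to 1073 (CpG-ODN), and 18784 to 20114 or 18425 to 18570 of their probes were above background. Of 18184 probes above background on at least 4 of the 8 arrays, 26.6% were called by limma at an adjusted p under 0.05, 12.8% (2322) higher and 13.9% (2521) lower with CpG-ODN. The division by direction followed the scaling, with 858 higher and 2775 lower after median scaling over all probes, and 2916 and 2179 after median scaling over the probes above background on all 8 arrays. Without any scaling it was 610 and 2692, and the median of all kept probes moved from 0.01 to -0.15. Ovarian and epithelial markers fixed for the check of the cell type were present, with 9 of 10 kept, among them PAX8, MUC16, EPCAM and KRT8, and WT1 not above background on any array. KRT18 was the single one of them called (0.75 ± 0.16, adjusted p = 0.00782).

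Of the 13 clock probes 9 were kept, and all 9 were above background on all 8 arrays, so none passed through 1 group alone. They cover 7 of the 8 genes. PER1, the other BMAL1 probe and the other 2 PER2 probes were left out of the fit. A level is never compared here between probes, since each probe has its own brightness.

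PER2, the period repressor whose protein scaffolds the complex with CRY, stood higher on every CpG-ODN array. Its bright probe gave 9.73, 9.15, 9.81 and 9.26 on saline arrays 1 to 4 and 10.35, 10.27, 10.34 and 10.14 on CpG-ODN arrays 1 to 4. The difference was 0.79 ± 0.17 (SE, n = 4 per group) on the log2 scale, a ratio of 1.73, and the lowest CpG-ODN array lay 0.34 above the highest saline array. The CpG-ODN arrays lay close together, with an SD of 0.093 against 0.33 in saline. The other probes of PER2 were not above background on any array, with raw signals of 174 to 217 and of 163 to 211, so they carry no information on it.

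PER1, the period gene that responds fastest to many external signals, was at the edge of detection. Its raw signal was 219, 189, 201 and 214 in saline, with detection p-values of 0.133, 0.476, 0.209 and 0.0646. With CpG-ODN the raw signal was 235, 283, 258 and 208, with detection p-values of 0.0184, 0.00395, 0.0211 and 0.0659. It was thus above background on 0 of 4 saline arrays and 3 of 4 CpG-ODN arrays, 1 array short of the filter. Its normalized values did not overlap, with 5.57 the highest in saline and 5.60 the lowest with CpG-ODN, while the raw values did. No ratio is given for it, since CpG-ODN array 4 was not above background either.

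PER3, the remaining period gene, which is dispensable for rhythm in mice, overlapped between the groups. Its normalized signal was 5.88, 6.61, 7.02 and 6.63 in saline and 7.03, 7.18, 6.74 and 6.45 with CpG-ODN. The difference of 0.31 ± 0.24 (SE, n = 4 per group) is little larger than its error, and saline array 1 alone lay under all others.

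CRY1, a cryptochrome and the stronger repressor of the CLOCK and BMAL1 pair, was read by a pair of probes that both stood higher with CpG-ODN. The brighter probe gave 9.98, 10.13, 9.97 and 9.61 in saline and 10.63, 10.63, 10.78 and 10.32 with CpG-ODN, a difference of 0.67 ± 0.15 (SE, n = 4 per group) and a ratio of 1.59. The other probe gave 9.76, 9.41, 9.18 and 9.42 in saline and 10.03, 10.24, 10.51 and 10.39 with CpG-ODN, a difference of 0.85 ± 0.16 and a ratio of 1.80. Neither probe overlapped between the groups. Their values correlated at r = 0.81 over the 8 arrays, which share the group difference. Array 3 of the CpG-ODN group was the highest for both.

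CRY2, the other cryptochrome, behaved in the same direction with very even CpG-ODN arrays. Its single probe gave 8.03, 7.79, 8.49 and 8.10 in saline and 8.88, 8.85, 8.77 and 8.91 with CpG-ODN. The difference was 0.75 ± 0.15 (SE, n = 4 per group), a ratio of 1.68, with an SD of 0.062 over the CpG-ODN arrays and 0.29 over the saline arrays. The groups lay 0.28 apart at their nearest arrays.

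CLOCK, the DNA-binding activator with histone acetyltransferase activity, gave unlike readings by its 2 kept probes. The brighter one, annotated to a cDNA entry and not to a RefSeq transcript, gave 8.75, 8.59, 8.85 and 8.32 in saline and 8.13, 8.09, 8.03 and 7.98 with CpG-ODN. It stood lower on every CpG-ODN array, by -0.57 ± 0.14 (SE, n = 4 per group), with saline 1.48 times the CpG-ODN level. The probe annotated to a RefSeq transcript gave 6.68, 6.94, 7.54 and 6.79 in saline and 7.39, 6.65, 6.31 and 7.25 with CpG-ODN, a difference of -0.09 ± 0.26 with full overlap. The r between the probes was 0.26 over the 8 arrays. The RefSeq probe was dim, with raw signals of 259 to 367, and the SE of its difference was the larger of the 2.

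BMAL1, the obligate partner of CLOCK and NPAS2, differed by 0.15 ± 0.12 (SE, n = 4 per group), with overlap. Its kept probe gave 7.59, 7.80, 7.72 and 7.93 in saline and 7.87, 7.92, 7.98 and 7.86 with CpG-ODN. The other BMAL1 probe was above background on 0 of 4 saline arrays and 1 of 4 CpG-ODN arrays. NPAS2, the relative that can stand in for CLOCK, gave 10.06, 9.76, 10.10 and 9.46 in saline and 10.00, 10.43, 9.93 and 9.77 with CpG-ODN. Its difference was 0.19 ± 0.19 (SE, n = 4 per group), and the groups overlapped.

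**Figure D1:**
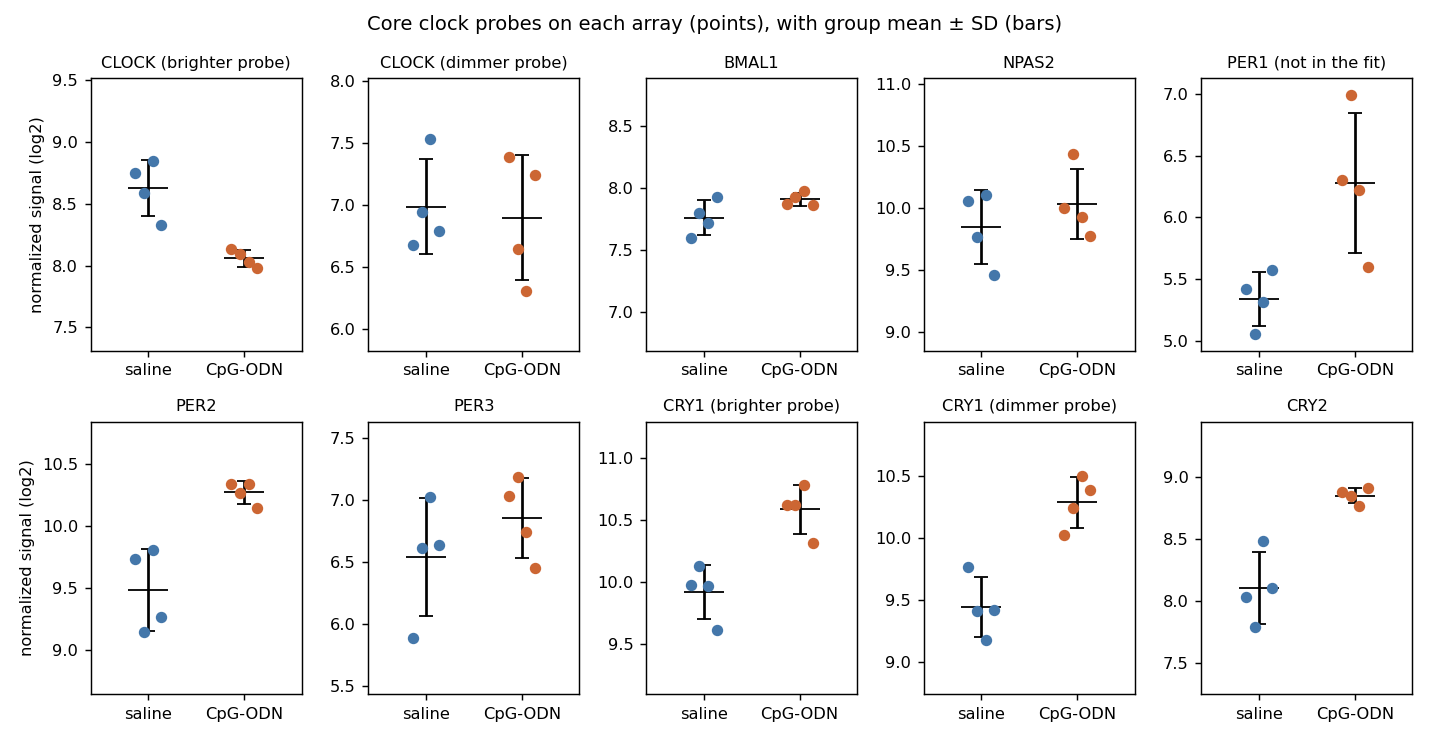
Normalized log2 signal of the 9 kept clock probes and of PER1 on each array, saline in blue and CpG-ODN in orange, with the group mean and SD as bars. Each panel spans the same height in log2 units but is placed on its own probe. PER2, CRY1 and CRY2 lie higher and the brighter CLOCK probe lower on all CpG-ODN arrays, while BMAL1, NPAS2, PER3 and the dimmer CLOCK probe overlap.

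In the fit over all probes 5 of the 9 kept clock probes were called, 4 higher and 1 lower. Of all kept probes 26.6% were called, 12.8% higher and 13.9% lower. Of the repressor probes 4 of 5 were called higher, and of the activator probes 0 of 4 were called higher and 1 of 4 lower. The repressor probes count CRY1 by both of its probes and leave out PER1, which was not in the fit. The median difference was 0.75 over the repressor probes and 0.03 over the activator probes, against 0.01 over all kept probes. The groups did not overlap at 5 of the 9, namely 4 higher and 1 lower, where 28.9% of all kept probes did not overlap, 14.0% higher and 14.9% lower. As the members were proposed with this comparison known, these counts describe them and nothing is read from them.

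**Figure D2:**
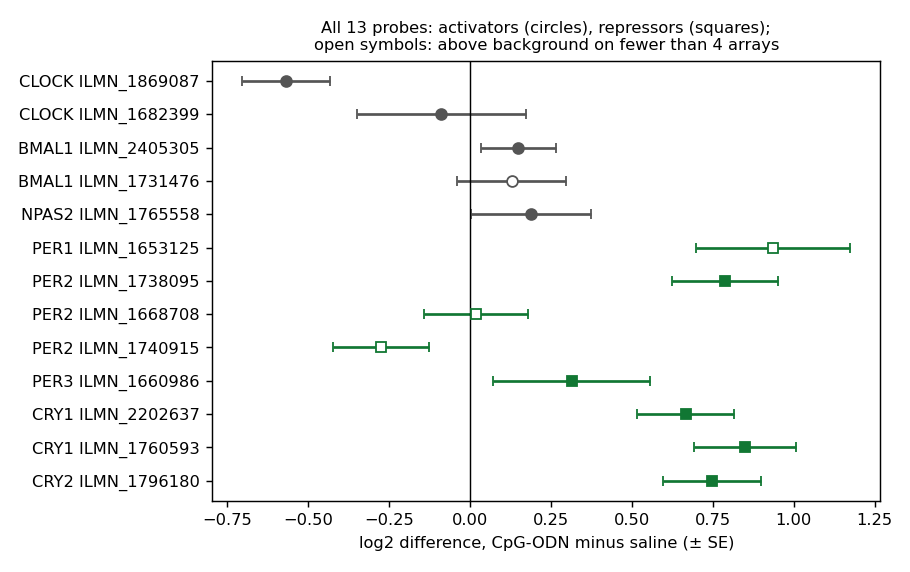
Log2 difference, CpG-ODN minus saline, with its SE for all 13 clock probes, activators as circles and repressors as squares. Filled symbols are the 9 kept probes. Open symbols are the 4 probes left out, at or near background, with values from a separate fit without the filter. No difference is read from the open symbols, PER1 included. The kept PER2, CRY1 and CRY2 probes stand between 0.67 and 0.85, PER3 at 0.31, and the activators between -0.57 and 0.19.

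The raw signals show how far the separation of the repressors rests on the normalization. For PER2 the raw signal was 1298, 742, 1091 and 764 in saline and 1224, 1350, 1762 and 1037 with CpG-ODN. Saline array 1, the brightest of its group, exceeded 2 of the 4 CpG-ODN arrays there, and saline array 3 exceeded CpG-ODN array 4. For CRY2 it was saline array 3 (544) that exceeded CpG-ODN arrays 1 (538) and 4 (530). Raw signals of both CRY1 probes and of CRY2 overlapped as well, and among the 9 kept probes the groups were apart in raw signal at the brighter CLOCK probe alone. That probe gave 752, 561, 650 and 481 in saline and 389, 422, 479 and 361 with CpG-ODN, so its gap was narrow. In the normalized table that the authors deposited, PER2, CRY1, CRY2 and the brighter CLOCK probe were apart between the groups.

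**Figure D3:**
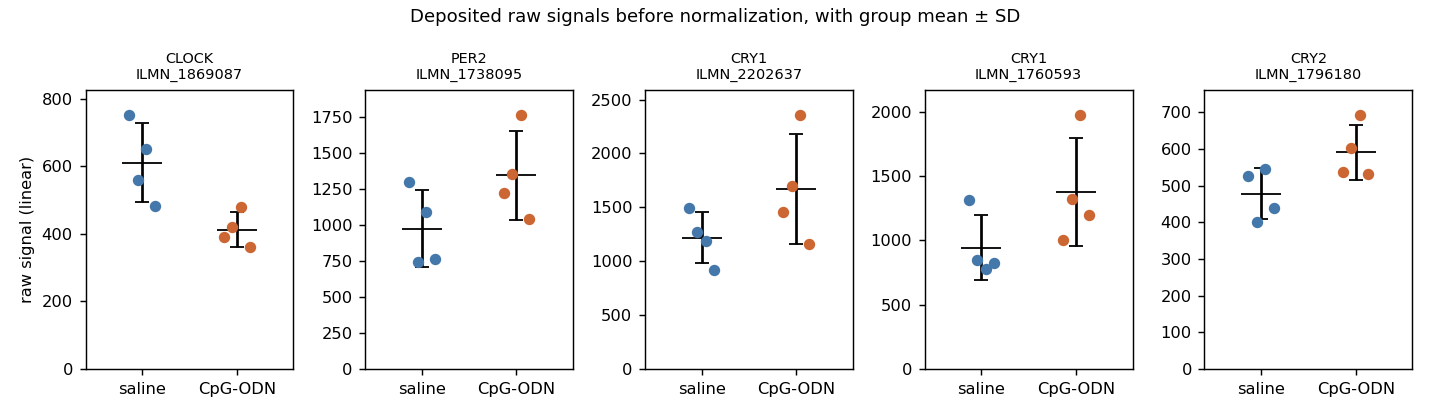
Deposited raw signal, on a linear axis from 0, of the 5 kept clock probes whose normalized groups do not overlap, by array, with the group mean and SD. The brighter CLOCK probe alone separates the groups before normalization. Saline array 1 reaches into the CpG-ODN range for PER2 and both CRY1 probes. Saline array 3 does so for PER2, the brighter CRY1 probe and CRY2, and saline array 2 for the brighter CRY1 probe.

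Without scaling between arrays the log2 differences were 0.58 for PER2, 0.49 and 0.65 for CRY1 and 0.50 for CRY2, beside a median of -0.15 over all kept probes. With median scaling over all probes they were 0.63, 0.54 and 0.69, and 0.54, beside a median of -0.10. The brighter CLOCK probe stood at -0.82 without scaling and at -0.77 with median scaling over all probes. Over all 20 alternatives the difference ran from 0.58 to 0.90 for PER2, from 0.49 to 0.76 and from 0.65 to 0.96 for the CRY1 probes and from 0.49 to 0.88 for CRY2, and PER3 ran from 0.09 to 0.47. Those of BMAL1 (-0.11 to 0.21), NPAS2 (-0.02 to 0.27) and the dimmer CLOCK probe (-0.37 to 0.11) took both signs.

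**Figure D4:**
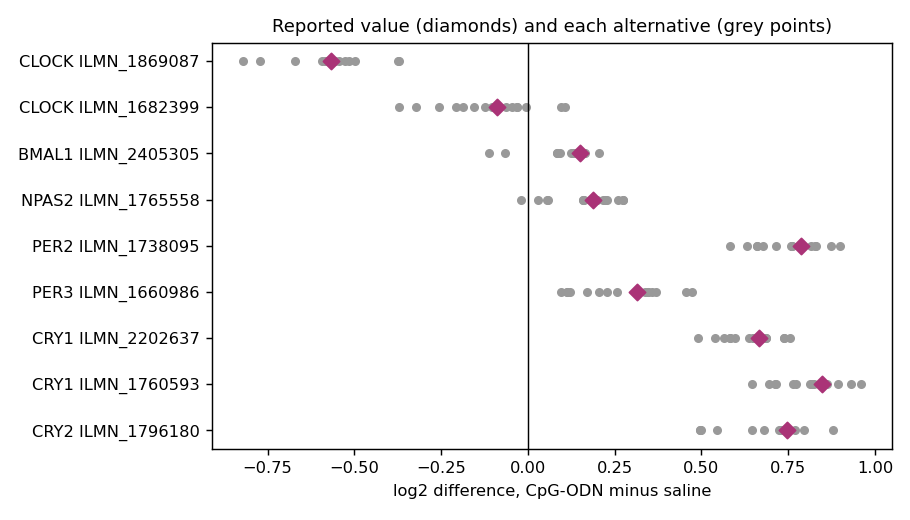
Log2 difference, CpG-ODN minus saline, of the 9 kept clock probes as reported (diamonds) and under each of 20 alternatives (grey points). The 4 probes of PER2, CRY1 and CRY2 stay above 0 and the brighter CLOCK probe stays below it, from -0.82 to -0.37. PER3, whose groups overlap, also stays above 0, from 0.09 to 0.47.

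Single arrays held different places across the clock genes. Saline array 3 was the highest of its group at 6 of the 9 kept probes, those of PER2, PER3, CRY2, NPAS2 and both of CLOCK, and the lowest at the dimmer CRY1 probe. CpG-ODN array 4 was the lowest of its group at 6 of the 9 and the highest at CRY2. The SD was larger in saline than with CpG-ODN at 8 of the 9 kept probes, and at 51.3% of all kept probes.

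The genes whose pattern over the 8 arrays was most like that of a clock gene were named by the highest Pearson r among 11016 other genes, as a description, since all share the same 8 arrays and part of the likeness is the group difference. For PER2 these were SAYSD1 and CABLES2 (r = 0.98 each), for CRY1 BAD (0.99) and ANXA7 (0.99), and for CRY2 TYMSOS and PMPCA (0.98 each). For the brighter CLOCK probe they were HSH2D and ATP9B (0.99 each), for NPAS2 PUS1 and MAN2A2 (0.97 each), for BMAL1 LIPA and MAPRE2 (0.97 each) and for PER3 ZC3H3 (0.94) and PPP1R26 (0.92). None of these 14 genes is on the clock lists used here.

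Accessory clock transcription factors were next set beside the core loop, a list not part of the 8 genes but chosen with earlier results known. Of its 12 genes 7 were kept, and 4 of them rose and 0 fell, with a median of 0.62, where 29.2% of 11023 genes were called, 12.9% higher and 16.3% lower. As the list was chosen with earlier results known, its count and adjusted p-values are descriptive. Nothing about the core loop is read from them. NR1D2, the REV-ERB beta repressor of BMAL1 transcription, was read at 7.43, 7.96, 7.36 and 7.20 in saline and 9.42, 9.66, 10.06 and 9.42 with CpG-ODN (difference 2.15 ± 0.20, adjusted p = 0.000103). The groups were wide apart also in raw signal, 319 to 427 against 684 to 1478. TEF and DBP, activators of D-box genes and, for DBP, a classical target of CLOCK and BMAL1, rose by 1.14 ± 0.15 (adjusted p = 0.000535) and 1.03 ± 0.17 (adjusted p = 0.00185). Without background correction TEF stood at 0.72 and DBP at 0.55, and in the authors' deposited table at 0.73 and 0.55, and both were still called. NFIL3, the D-box repressor that opposes them, rose by 0.62 ± 0.17 (adjusted p = 0.0221), a call lost without saline array 3 (adjusted p = 0.0551), without CpG-ODN array 1 (0.0559) and with 2 of the scalings. In raw signal the saline and CpG-ODN groups of TEF were apart (362 to 459 against 491 to 747). Those of DBP (295 to 388 against 344 to 466) and of NFIL3 (570 to 920 against 717 to 1047) overlapped. BHLHE40 stood at 0.41 ± 0.24 (adjusted p = 0.247), RORA at -0.16 ± 0.12 (0.378) and HLF at 0.07 ± 0.19 (0.827). NR1D1, the REV-ERB alpha gene, and BHLHE41, CIART and RORB were not above background on any array.

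Of 24 genes for enzymes that modify or degrade clock proteins 21 were kept, 2 rose and 4 fell, with a median of -0.04. The 6 of 21 called is close to the 29.2% called over all genes, so the count says nothing particular about this list. CUL4A, a cullin of DDB1 ubiquitin ligases, fell by a log2 change of -1.09 ± 0.11 (adjusted p = 0.000178), and its other kept probe was also called, at -1.15. PRKAA1 and PRKAA2, the catalytic subunits of AMP-activated kinase, which marks CRY proteins for degradation, changed by -0.84 ± 0.13 (adjusted p = 0.00108) and -0.74 ± 0.20 (adjusted p = 0.0193). The dimmer PRKAA1 probe stood at -2.19, and the call of PRKAA2, above background on 3 of 4 CpG-ODN arrays, was lost without saline array 1 (adjusted p = 0.0528). The size of the PRKAA2 difference followed the background correction, at -0.25 without it and -0.26 in the authors' deposited table. SKP1, the adaptor that joins F-box proteins to a cullin, rose by 0.60 ± 0.10 (adjusted p = 0.00212), a call lost with median scaling over all probes (adjusted p = 0.0601) and with no normalization (0.173). GSK3B, a kinase of several clock proteins, rose by 0.49 ± 0.13 (adjusted p = 0.0194). The GSK3B call was lost in 6 of 21 alternatives, with those same scalings (adjusted p = 0.197 and 0.402), with the replicate block (0.0514) and without saline array 1 (0.0503), saline array 2 (0.0556) or CpG-ODN array 2 (0.0565). Of the casein kinase 1 genes, whose products phosphorylate PER proteins, CSNK1A1 changed by -0.55 ± 0.15 (adjusted p = 0.0217) at its brightest probe, with its other kept probes at -0.25 (adjusted p = 0.203) and 0.01 (0.983). That CSNK1A1 call was lost with the mean of its kept probes (-0.26, adjusted p = 0.134), with the replicate block (0.0674) and without saline array 2 (0.0554), saline array 4 (0.0563), CpG-ODN array 1 (0.0533) or CpG-ODN array 4 (0.059). CSNK1D at 0.08 ± 0.14 (adjusted p = 0.738) and CSNK1E at -0.04 ± 0.16 (adjusted p = 0.874), did not pass.

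Among partners and cofactors of the clock complexes, 18 of 23 genes were kept, 1 rose and 4 fell, with a median of 0.07. The 5 of 18 called is likewise close to the 29.2% called over all genes. EP300, a histone acetyltransferase recruited by CLOCK and BMAL1, rose by 0.60 ± 0.13 (adjusted p = 0.00727). NONO, an RNA-binding partner of PER proteins, fell by a log2 change of -0.52 ± 0.12 (adjusted p = 0.00924), with its dimmer probe at -0.51. HDAC1 and SIN3A, of the deacetylase complex that PER recruits, changed by -0.52 ± 0.13 (adjusted p = 0.0131) and -0.40 ± 0.12 (adjusted p = 0.0294). SIRT1, a deacetylase that binds CLOCK, changed by -0.43 ± 0.14 (adjusted p = 0.0431), with groups that overlapped, and its call was lost in 12 of 21 alternatives (adjusted p up to 0.112), among them leaving out saline array 1, 2 or 3 or CpG-ODN array 1, 2 or 4. The SIN3A call was lost in 10 of 21 alternatives, among them leaving out saline array 2 or 4 or CpG-ODN array 1, 2 or 4 (adjusted p from 0.0506 to 0.0763). EP300 and NONO were not called with median scaling over all probes (adjusted p = 0.15 and 0.0843), and NONO and HDAC1 were not called with median scaling over probes above background on all arrays (adjusted p = 0.0661 and 0.073). With no normalization EP300 (adjusted p = 0.328), NONO (0.114) and HDAC1 (0.0734) were not called. The count for this list fell to 3 without saline array 2 and without CpG-ODN array 1 or 4.

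Relatives of CLOCK and BMAL1 with the same bHLH-PAS fold gave 0 calls by limma among the 5 of 13 genes kept, HIF1A, EPAS1, AHR, ARNT2 and NPAS1, with differences from -0.15 to 0.01 and adjusted p from 0.659 to 0.978. None of the 5 had an unadjusted p under 0.05, a count of 0. Over all genes 29.2% were called, and with 5 genes kept the count of 0 says nothing particular about this list. BMAL2, the closest relative of BMAL1, was not above background on any array.

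**Figure D5:**
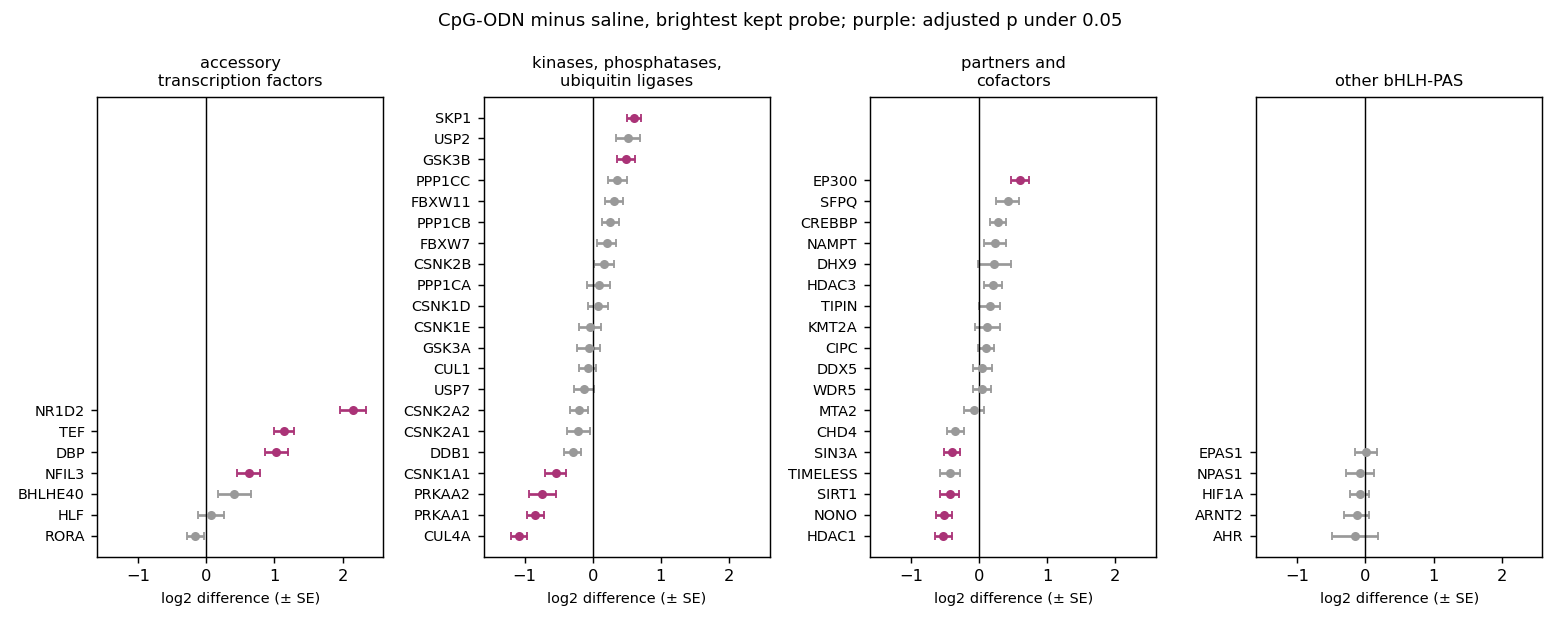
Log2 difference, CpG-ODN minus saline, with its SE for the kept genes of the 4 clock-related lists, each by its brightest kept probe, with calls in purple. NR1D2 stands at 2.15, TEF at 1.14 and DBP at 1.03, and CUL4A lowest at -1.09. None of the 5 kept bHLH-PAS relatives is called, where 29.2% of all genes were.

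Markers of other cells moved between the same groups. Of 9 leukocyte markers 3 were kept. CD14 (0.76 ± 0.19, adjusted p = 0.0145) and CD68 (0.65 ± 0.16, adjusted p = 0.0158) rose and AIF1 fell (-1.09 ± 0.31, adjusted p = 0.0277). CD14 was above background on only 1 of 4 saline and 3 of 4 CpG-ODN arrays, and its groups overlapped. The defining markers PTPRC, CSF1R and CD79A were not above background on any array. The summed raw signal of the leukocyte probes was 10361 to 13017 in saline and 11853 to 15193 with CpG-ODN. Of 4 endothelial markers 3 were kept, VWF (1.02 ± 0.20, adjusted p = 0.00477) and CDH5 (0.63 ± 0.19, adjusted p = 0.033) rose, and the summed raw signal was 1254 to 1548 and 1309 to 1885. Fibroblast markers had 0 calls by limma among 2 kept of 6, with 0 at an unadjusted p under 0.05, and COL1A2, COL3A1 and LUM were not above background on any array. Of 3 mesothelial markers UPK3B rose (0.67 ± 0.22, adjusted p = 0.0487) and LRRN4 fell (-0.40 ± 0.13, adjusted p = 0.0459), and the one erythroid marker kept, HBA2, was not called (-0.22 ± 0.47, adjusted p = 0.777). The tumour line is human and grew in mice, so other cells in the samples would be of the mouse, while the probes are for human genes. Whether these marker signals come from the tumour cells or from mouse RNA was not tested, so they are not read as levels of other cells. The part of other cells in the clock differences was not tested. In such bulk samples fewer cells of a type and less RNA per cell cannot be told apart.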

How the data were processed

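RNA of 8 samples was read on 1-colour Illumina bead arrays. Per the file headers, the intensity values in the deposited raw table are average signals that were not normalized, each beside a deposited detection p-value. BeadStudio is given by the submitters' processing notes, without a version. A second table of intensity values that the authors deposited has the same distribution on all arrays, by a method not given in the sources used here.

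Raw signals were processed by neqc in limma 3.58.1 (R 4.3.3), with background inferred from the detection p-values, offset 16 and quantile normalization, and 18184 of 48797 probes with detection p under 0.05 on at least 4 arrays were fitted with lmFit and eBayes, two-sided, adjusted by Benjamini-Hochberg over all of them. Probes were named by GEO's platform annotation, with symbols updated to RefSeq (GRCh38.p14), and 14584 kept probes named 1 gene each, 11023 genes in all. Each listed gene was represented by its brightest kept probe. The fit was tested on simulated data.

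The members and lists were chosen with earlier results of these data known. Counts and adjusted p-values of the clock-related lists are therefore descriptive. Genes named were all probes of the members, up to 4 called genes with the smallest p from each of the 4 clock-related lists, NR1D1 and NR1D2, and the 2 genes most like each member. BHLHE40, RORA, HLF, GSK3B, SIRT1, the casein kinases, the bHLH-PAS relatives and the markers were named outside that rule, after their values were seen. Alternatives covered background correction, scaling, the second table, the filter, weights, trend, replicate number and each array left out. The number of arrays limits the precision.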

Additional observations from a re-analysis of the deposited data

Results flagged for a closer look

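Single arrays far from the other 3 of their group were sought in 44 groups of 4, those of the kept clock probes, PER1 and the genes named from the lists. This was found in 1 of the 44, where chance gives about 1 in 20. For NONO with CpG-ODN, array 4 read 13.58 while the other 3 lay between 13.73 and 13.76, so that the gap made up 0.84 of the distance from lowest to highest array.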

How the results depend on the processing

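Of the 9 kept clock probes, 5 were called in the reported setting, 2 with median scaling over all probes and 1, the brighter CLOCK probe, with no normalization between arrays, an alternative chosen after seeing the data. Both scalings leave the CpG-ODN arrays lower on the whole, with medians of -0.10 and -0.15 over all kept probes. With no filter, or above background on at least 1 array, the count was 6, since PER1 then entered. PER1 passed the looser filter through CpG-ODN arrays alone, as no saline array detected it. Its saline values are thus background signal, and the added call is not read as a further clock difference. For partners and cofactors the count of 5 became 1 with median scaling over all probes, 0 with no normalization and 2 with median scaling over probes above background on all 8 arrays (also chosen afterwards). It was 3 with no filter, 3 with detection on at least 1 array and 3 with the replicate block, and 3 to 5 with each array left out. The kinase and ligase count of 6 became 10 with median scaling over probes above background on all 8 arrays. Other counts stayed within 1.5 times the reported ones, and the cause of these moves was not tested. No clock probe that was called changed sign. Same-numbered arrays of the 2 groups did not deviate together (r from -0.27 to 0.09), so the replicate block, with 3954 probes and 5 clock probes called against 4843 and 5, is an alternative only. The slide could not be used as a block, as no slide was given in the sources used here. Dim probes limit what can be said of PER1, the second BMAL1 probe and 2 PER2 probes.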
